A study of Homo sapiens with 12 samples.

Results

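The genes of ribosome biogenesis and the nucleolus were examined in oral squamous cell carcinoma (OSCC) cells cultured with or without rapamycin. The list held 45 genes, chosen by symbol for their known roles in making ribosomes, with earlier results of these data known. All 45 were found among the 58302 gene identifiers of the count table. RNA-seq comprised 4 libraries, named rapamycin 1 and 2 (100 nM rapamycin) and control 1 and 2 (no rapamycin). Methylated RNA immunoprecipitation sequencing (MeRIP-seq) comprised 8 libraries, with 1 immunoprecipitate and 1 input for each of HSC3 control, HSC3 rapamycin, CAL33 control and CAL33 rapamycin, after 3 days with or without the drug. HSC3 and CAL33 are established lines derived from human tongue squamous cell carcinoma, so every group consisted of tumour cells in culture. The study used rapamycin to induce autophagy and asked how N6-methyladenosine (m6A), a methyl mark on mRNA, takes part in it.

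Ribosomes are built in the nucleolus, where RNA polymerase I transcribes ribosomal DNA into a long precursor RNA. Small nucleolar ribonucleoproteins (snoRNPs) modify that precursor, and large assemblies of processing factors fold it, cut it and load it with ribosomal proteins to give a small and a large subunit. The kinase complex mTORC1, which rapamycin inhibits, is known to promote this pathway, and the transcription factor MYC is known to activate many of its genes. Proliferating tumour cells rely on a high output of new ribosomes.

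In the RNA-seq labels, rapamycin 1 and 2 are HSC3 cells and control 1 and 2 are CAL33 cells, but the MeRIP-seq labels use number 1 for HSC3 and number 2 for CAL33 in either treatment. By the RNA-seq labels, rapamycin and cell line cannot be told apart. The libraries themselves resembled each other by number. Log2 levels across 15826 genes correlated at r = 0.963 between the libraries numbered 1 and r = 0.953 between those numbered 2, against 0.719 to 0.766 for the other pairs (genes are not replicates, and no p is given). The squamous keratin *KRT17* was at 5.05 and 4.90 CPM (read counts scaled to a common library total) in rapamycin 1 and control 1, and at 2119 and 1346 CPM in rapamycin 2 and control 2. *TP63*, the squamous lineage transcription factor, followed the same split, with 13.5 and 19.7 CPM in the libraries numbered 1 and 353 and 333 CPM in those numbered 2. Rapamycin was compared with control within each number, as the rule of the gene list pairs the libraries, and the tests were also run without the number.

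Epithelial identity was present in all 4 libraries. *EPCAM* was between 157 and 272 CPM and *CDH1* between 180 and 334 CPM, and *KRT14* was the squamous marker of 10 with the lowest levels, at 0 CPM in both libraries numbered 1. Other keratins moved with rapamycin. *KRT5*, a basal keratin, was at 6.10 and 327 CPM in rapamycin 1 and 2 and at 34.2 and 1703 CPM in control 1 and 2, lower with rapamycin within each number (log2 fold change −2.43 ± 0.27, edgeR adjusted p = 6.06e-06). *KRT6A*, a keratin of activated squamous cells, was at 0.421 and 5.38 CPM with rapamycin and at 4.39 and 374 CPM in control (−5.46 ± 0.62, edgeR adjusted p = 0.00374), a log2 difference of −3.30 in number 1 and −6.11 in number 2. *KRT14* was called lower from the libraries numbered 2 alone, at 1.26 CPM with rapamycin and 9.34 CPM in control, and the other 7 squamous markers were not called. *SFN* was at 332 and 238 CPM with rapamycin and at 413 and 673 CPM in control (log2 fold change −0.91 ± 0.29), and *KRT17* had 0.38 ± 0.28. Squamous keratins thus differed between the treatments in the same comparison as the 45 genes. Summed over the 10 squamous markers, the level was 1258 CPM in rapamycin 1, 3753 in rapamycin 2, 1471 in control 1 and 5226 in control 2. The leukocyte marker *PTPRC*, the fibroblast markers *COL1A2* and *DCN* and the endothelial markers *KDR* and *EMCN* had no counts in any library. The 5 fibroblast markers summed to 46.7 and 28.5 CPM with rapamycin and to 35.8 and 8.79 CPM in control, mostly *COL1A1*, and the 5 endothelial markers to 1.42 and 45.4 CPM with rapamycin and 1.71 and 30.8 CPM in control, of which *CDH5* took 41.6 CPM in rapamycin 2 and 25.6 CPM in control 2. The 5 leukocyte markers summed to at most 0.316 CPM. Mitochondrial genes took 6.62% and 7.94% of counts with rapamycin and 5.71% and 7.3% in control, higher with rapamycin within each number. The part of these differences in the results was not tested.

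All 45 genes were at lower fitted levels with rapamycin, and 17 of them (37.8%) passed the test (edgeR quasi-likelihood test with the library number as a block, Benjamini-Hochberg adjusted p under 0.05 over all genes). None was called higher. The genes that fell included *UTP20*, *RRS1*, *MRTO4*, *NOP2*, *PES1*, *NCL*, *NOLC1* and *DKC1*. Among the 15826 genes tested, 8.15% were called, 3.5% lower (554 genes) and 4.65% higher (736 genes). With upper-quartile scaling the split was 360 lower and 805 higher, and 14 of the 45 genes were called, again all lower. The median log2 fold change was −0.80 over the 45 genes and 0.05 over all genes tested, of which 47% had a negative value. Without the number as a block no gene was called (0%), neither among the 45 nor among all genes, and the smallest adjusted p was 0.9997 in edgeR. Under that fit an unadjusted p below 0.05 was reached by 4 of the 45 genes and by 446 of all genes, and with the block by 30 and by 3736.

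The counts behind these values ranged from 95 to 46077 per gene and library, out of 18492273 counts in rapamycin 1, 18763045 in rapamycin 2, 21653290 in control 1 and 23763098 in control 2. Added together, the 45 mRNAs took 6232 CPM in rapamycin 1 and 4023 in rapamycin 2, against 9198 in control 1 and 9057 in control 2. Their summed level was thus 67.8% of control within number 1 and 44.4% within number 2. CPM are shares of the library, and in bulk RNA fewer cells expressing a gene and less RNA per cell cannot be told apart. Rapamycin 1 and 2 were each lower than either control for 35 of the 45 genes, including all 17 that passed, an arrangement seen in 16.5% of all genes tested. The reverse arrangement, seen in 15% of all genes, occurred for none of the 45.

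**Figure D1:**
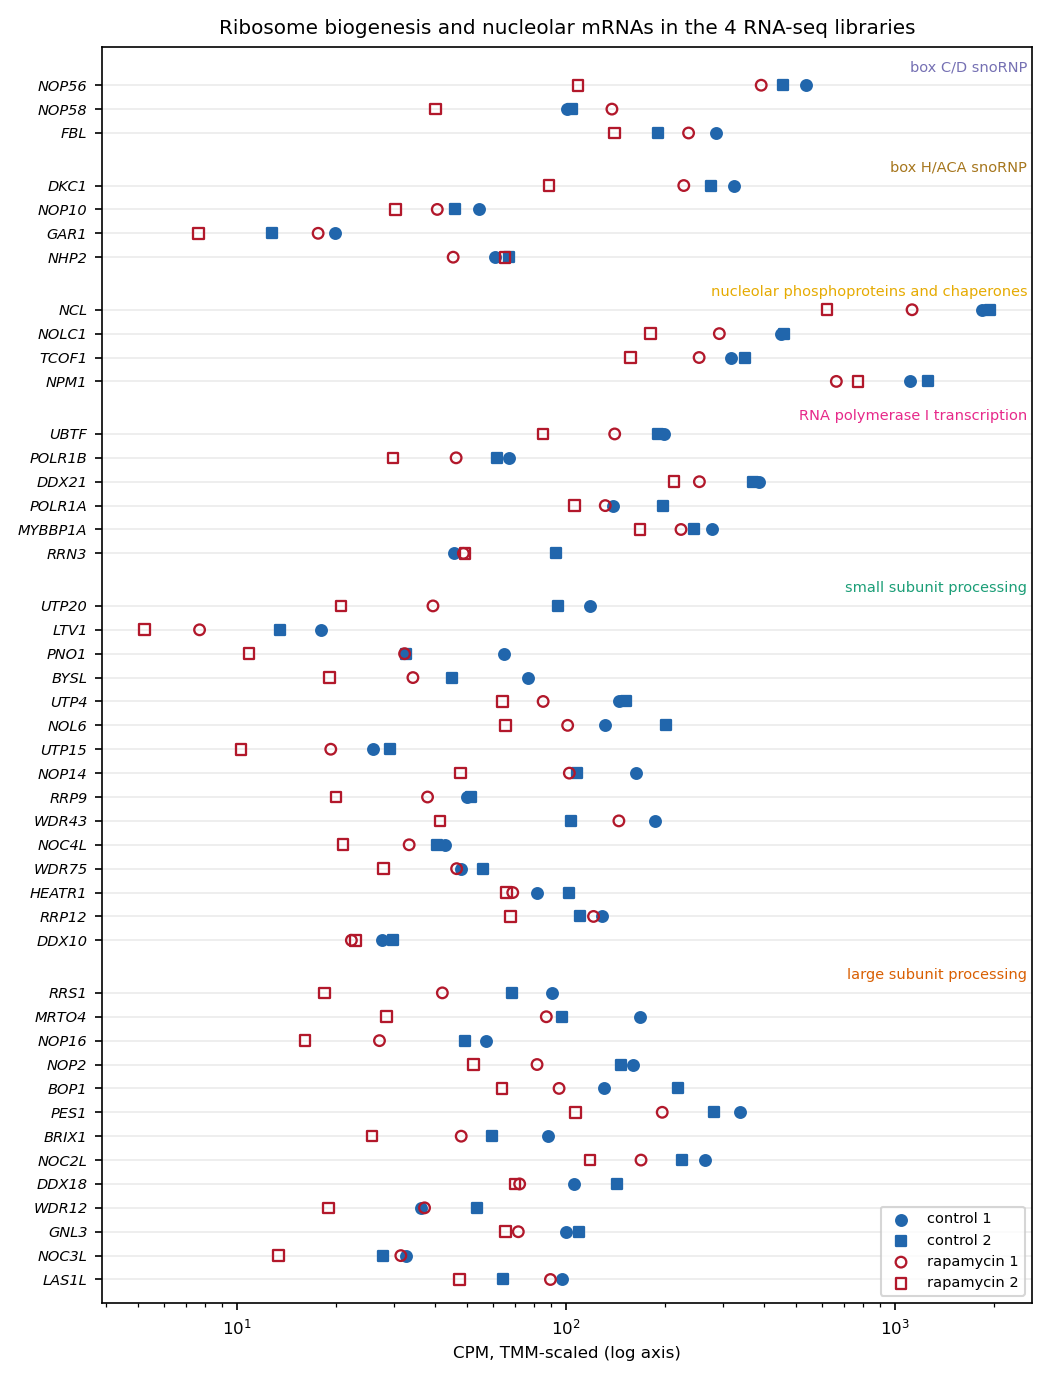
Levels of the 45 mRNAs in each RNA-seq library, in TMM-scaled CPM on a log axis, grouped by role. Filled blue symbols are control and open red symbols rapamycin, circles number 1 and squares number 2; the open red square (rapamycin 2) is the lowest of the 4 symbols in most rows, and red lies left of blue without overlap for 35 of the 45 genes.

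The factors of the large subunit had the lowest median fitted log2 fold change of the roles, −1.05. Of the 13, 7 were called lower, beside 3.5% of all genes tested. Their median was −0.65 within number 1, where the nucleolar phosphoproteins and chaperones had −0.66, and −1.40 within number 2. *RRS1*, an assembly factor that helps bring the 5S ribonucleoprotein into the precursor, was at 42.1 and 18.4 CPM in rapamycin 1 and 2 and at 90.5 and 68.4 CPM in control 1 and 2. The groups did not overlap, and the fitted log2 fold change was −1.49 ± 0.29 (SE, n = 2 per group, edgeR adjusted p = 0.00276). *MRTO4*, which holds the place of a stalk protein on the immature subunit, was at 87.1 and 28.4 CPM with rapamycin and at 168 and 97.3 CPM in control. It fell by 1.36 ± 0.27 on the log2 scale (edgeR adjusted p = 0.0039), and rapamycin 2 was far below the other libraries. *NOP2*, a methyltransferase of the large ribosomal RNA, was at 81.7 and 52.2 CPM with rapamycin and at 160.5 and 147 CPM in control. The rapamycin libraries were well separated from the 2 controls, which lay close together (log2 fold change −1.23 ± 0.26, edgeR adjusted p = 0.00525). *NOP16*, another nucleolar assembly factor, was at 27.1 and 16.1 CPM with rapamycin and 57.2 and 49.2 CPM in control, with a log2 fold change of −1.34 ± 0.30 (edgeR adjusted p = 0.00686).

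*PES1* and *BOP1* encode partners in the PeBoW complex, which is needed to process the precursor of the large subunit RNA. *PES1* was at 196 and 107 CPM with rapamycin and at 338 and 283 CPM in control, a log2 fold change of −1.09 ± 0.26 (edgeR adjusted p = 0.0111). *BOP1* passed with −1.12 ± 0.31 (edgeR adjusted p = 0.0325; not with upper-quartile or total-count scaling or in DESeq2), from 95.3 and 63.9 CPM with rapamycin and 130.5 and 219.5 CPM in control. Its log2 difference was −0.45 in number 1 and −1.78 in number 2 (number 1 alone is what remains without either library of number 2). *BRIX1*, a pre-ribosome assembly factor, passed with −1.04 ± 0.28 (edgeR adjusted p = 0.0196). *WDR12*, the other PeBoW member, did not pass, at 37.1 and 19.0 CPM with rapamycin and 36.1 and 53.6 CPM in control, and its groups overlapped. The remaining genes of the large subunit were *NOC2L*, *DDX18*, *GNL3*, *NOC3L* and *LAS1L*. Their log2 fold changes ranged from −0.79 for *NOC2L* to −0.28 for *LAS1L*, an endonuclease component that cuts a spacer of the precursor, and none passed.

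Among the factors of the small subunit, 7 of 15 were called lower, beside 3.5% of all genes tested, and the median was −0.93. The lowest fitted fold of all 45 genes was that of *UTP20*, a component of the small subunit processome. *UTP20* was at 39.4 and 20.7 CPM with rapamycin and at 118 and 94.6 CPM in control, so that the higher rapamycin library was below either control. Its log2 fold change was −1.89 ± 0.28, or 0.27-fold of control (edgeR adjusted p = 0.000278). *PNO1*, which binds the small subunit RNA near its end and takes part in late maturation, was at 32.3 and 10.9 CPM with rapamycin and at 64.7 and 32.5 CPM in control. Rapamycin 1 and control 2 were almost level for *PNO1*, while within each number the rapamycin library was lower (log2 fold change −1.29 ± 0.30, edgeR adjusted p = 0.00959). *BYSL*, encoding bystin, was at 34.2 and 19.1 CPM with rapamycin and at 76.6 and 44.95 CPM in control. The fall of *BYSL* was alike in both numbers, −1.16 in number 1 and −1.23 in number 2 on the log2 scale (fit −1.20 ± 0.29, edgeR adjusted p = 0.0101).

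*UTP4* belongs to the subcomplex that joins the precursor RNA first. It was at 85.2 and 64.1 CPM with rapamycin and at 145 and 153 CPM in control, and fell by 1.01 ± 0.26 on the log2 scale (edgeR adjusted p = 0.0164). *NOP14*, a processome component, was at 102 and 47.8 CPM with rapamycin and at 163 and 108 CPM in control (log2 fold change −0.93 ± 0.26, edgeR adjusted p = 0.0272). The highest rapamycin value of *NOP14* was just under its lowest control value. *LTV1*, which acts on the pre-small subunit up to its release in the cytoplasm, passed with −1.30 ± 0.39 from 95 to 389 counts per library (edgeR adjusted p = 0.0398), and *NOL6* with −0.998 ± 0.296 (edgeR adjusted p = 0.0429). *NOL6* was at 101 and 65.6 CPM with rapamycin and at 131 and 202 CPM in control, a log2 difference of −0.38 in number 1 and −1.62 in number 2. The call of *LTV1* was lost with upper-quartile or total-count scaling and in DESeq2, and that of *NOL6* under these, with RLE scaling and with at least 10 counts in every library. The other 8 genes, *UTP15*, *RRP9*, *WDR43*, *NOC4L*, *WDR75*, *HEATR1*, *RRP12* and *DDX10*, did not pass and ranged from −0.96 to −0.34. Several of these, *UTP15*, *WDR43*, *WDR75* and *HEATR1*, encode partners of the same early subcomplex as *UTP4*.

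Of the 4 nucleolar phosphoproteins and chaperones, 2 were called lower, beside 3.5% of all genes tested, and the median was −0.86. *NCL* encodes nucleolin, an abundant protein that binds the precursor RNA. It was at 1130 and 622 CPM with rapamycin and at 1840 and 1947 CPM in control (log2 fold change −1.17 ± 0.28, edgeR adjusted p = 0.0122). *NOLC1*, a chaperone of snoRNPs, was at 293 and 180.5 CPM with rapamycin and at 450.5 and 461 CPM in control (log2 fold change −0.99 ± 0.27, edgeR adjusted p = 0.0226). For both genes the 2 controls differed little from each other, and the rapamycin libraries lay apart from each other and below them. Within number 1 alone, that is without either library of number 2, the log2 difference was −0.70 for *NCL* and −0.62 for *NOLC1*, and within number 2 it was −1.65 and −1.35. *TCOF1*, encoding treacle, had −0.74 ± 0.27 (edgeR adjusted p = 0.0896) and *NPM1*, encoding nucleophosmin, −0.73 ± 0.26 (edgeR adjusted p = 0.0811). *NPM1* and *RRN3* have near-identical copies in the genome, so their counts are uncertain.

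The snoRNP proteins were uneven. In the box H/ACA particle, which converts uridine to pseudouridine, *DKC1*, the catalytic subunit, was at 228 and 88.8 CPM with rapamycin and at 325 and 276 CPM in control. *DKC1* fell by 1.07 ± 0.29 on the log2 scale (edgeR adjusted p = 0.0244), with −0.51 in number 1 and −1.64 in number 2. Its partner *NHP2* was at 45.4 and 65.3 CPM with rapamycin and at 61.0 and 66.9 CPM in control, with overlapping groups and the smallest difference of the 45 genes (log2 fold change −0.23 ± 0.27, edgeR adjusted p = 0.65). *NOP10* and *GAR1*, the other two proteins of the particle, had −0.51 and −0.45 and did not pass, and the median of the 4 genes was −0.48. In the box C/D particle, which methylates ribose, none of 3 passed, beside 3.5% of all genes tested called lower, and the median was −0.46.

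*NOP56*, a core protein of the box C/D particle, was at 393 and 109 CPM with rapamycin and at 537 and 457 CPM in control, so that rapamycin 2 alone stood far from the rest. Its log2 fold change was −1.26 ± 0.36 (edgeR adjusted p = 0.0543), the lowest value among the 28 genes that did not pass. The log2 difference of *NOP56* was −0.45 in number 1 and −2.07 in number 2. The gene was called with no count filter, without robust estimation and in DESeq2 (DESeq2 adjusted p = 0.0417). *FBL*, the methyltransferase fibrillarin, was at 236 and 140.5 CPM with rapamycin and at 287 and 190.5 CPM in control. The *FBL* groups overlapped, and each rapamycin library was below the control of the same number (log2 fold change −0.36 ± 0.25, edgeR adjusted p = 0.41).

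None of the 6 genes of RNA polymerase I transcription passed, beside 3.5% of all genes tested called lower. Their median was −0.59, with a range from −0.83 to −0.42. An unadjusted edgeR p under 0.05 was reached by 3 of the 6, and 5 had both rapamycin libraries below both controls. *UBTF*, the factor that marks ribosomal DNA for transcription, came nearest, with −0.83 ± 0.26 (edgeR adjusted p = 0.0514). *DDX21*, a nucleolar RNA helicase, was at 255 and 213 CPM with rapamycin and at 386 and 371 CPM in control, without overlap (log2 fold change −0.70 ± 0.25, edgeR adjusted p = 0.0878). *MYBBP1A*, a nucleolar protein that acts on polymerase I transcription and precursor processing, was at 224 and 168 CPM with rapamycin and at 277 and 246 CPM in control (log2 fold change −0.43 ± 0.25, edgeR adjusted p = 0.312). The polymerase subunits *POLR1B* and *POLR1A* had −0.80 and −0.48. *RRN3*, the initiation factor through which mTOR is known to act on the polymerase, had −0.42 ± 0.29 (edgeR adjusted p = 0.407).

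**Figure D2:**
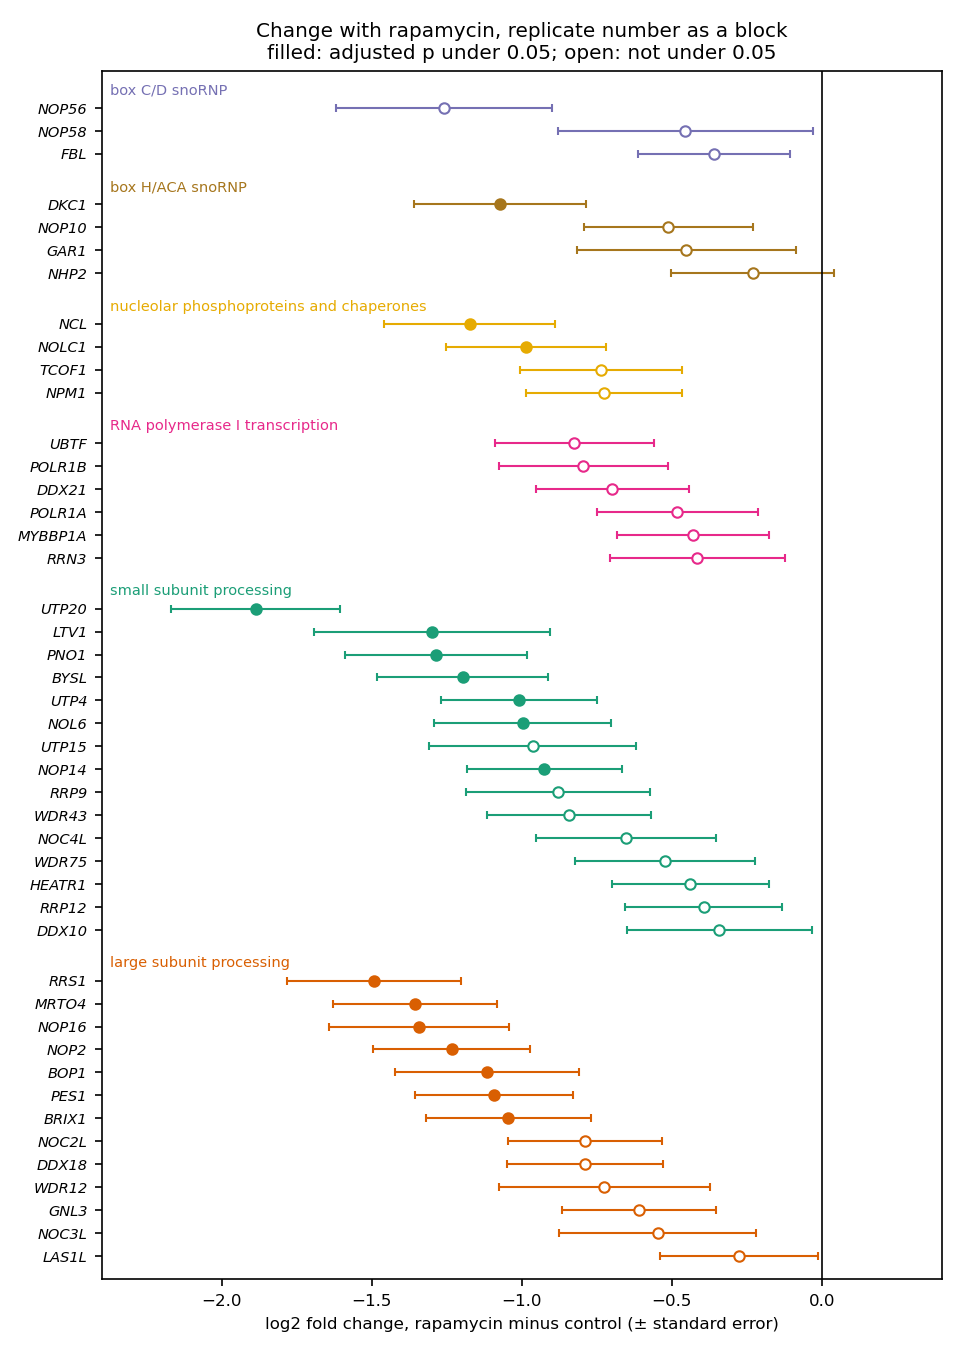
Fitted log2 fold change of each of the 45 genes, rapamycin minus control, with its standard error, from edgeR with the library number as a block. All points lie left of 0, from −1.89 (*UTP20*) to −0.23 (*NHP2*); filled points are the 17 with an adjusted p under 0.05, 7 of them in each of the small and large subunit groups.

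The separation between called and not called genes was gradual. The 28 genes that did not pass had adjusted p-values between 0.0514 and 0.65 in edgeR, 11 of them under 0.10, and 18 of the 28 had both rapamycin libraries below both controls. Differences between roles were not tested.

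The differences were larger in number 2. Within number 1 the median log2 difference over the 45 genes was −0.45, and within number 2 it was −1.18, against 0.02 and 0.10 over all genes tested. For 43 of the 45 genes the value in number 2 was the lower, the exceptions being *NPM1*, with −0.75 in number 1 and −0.71 in number 2, and *NHP2*, with −0.43 and −0.04. The 2 controls differed less than the 2 rapamycin libraries, with a median log2 difference of number 2 minus number 1 of −0.12 in control and −0.74 with rapamycin. With 1 library for each number and treatment, the difference between the numbers has no replicate and was not tested. In 42 of the 45 genes the rapamycin library was the lower in both numbers, as in 31.7% of all genes tested, and in the other 3 the numbers went opposite ways, as in 31.2% of all genes.

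**Figure D3:**
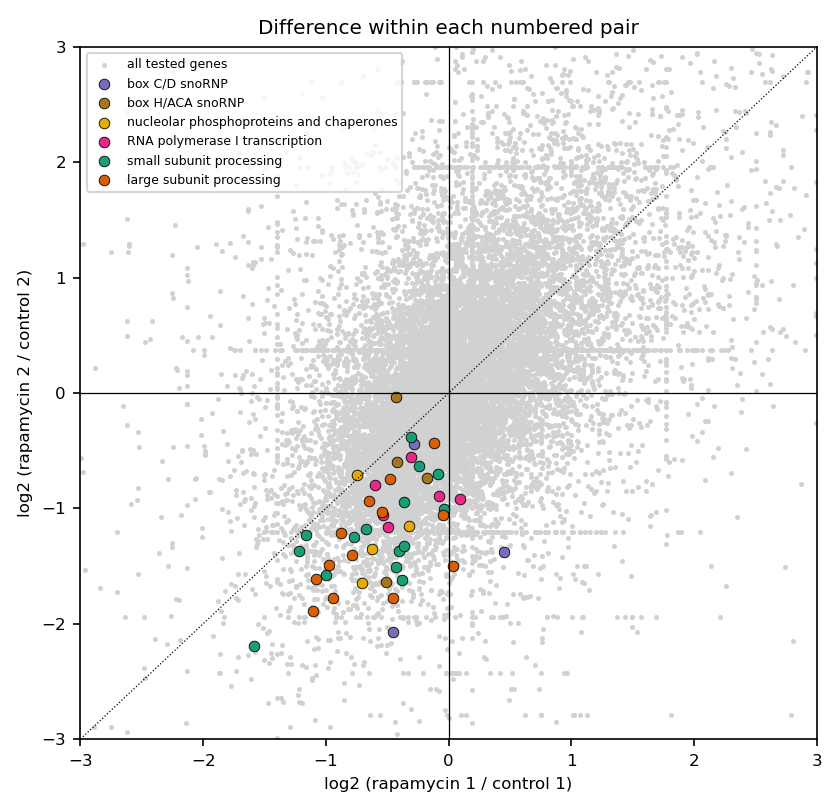
Log2 difference between rapamycin and control within number 1 (horizontal axis) and within number 2 (vertical axis), for all tested genes (grey; genes beyond the axis limits are not drawn) and for the 45 genes coloured by role. The 45 genes sit below 0 on both axes except for 3, and 43 of the 45 lie below the dotted line of equal change.

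The rest of the pathway was read from a written list of 115 other ribosome biogenesis genes, also chosen with earlier results of these data known. Of these, 114 were tested and *PWP2*, with at most 4 counts in a library, was under the count filter. Of the 114, 23 (20.2%) were called lower and 2 (1.75%) higher, beside 3.5% and 4.65% of all genes tested. The median log2 fold change was −0.59. *IMP3*, a protein of the U3 snoRNP that prepares the small subunit precursor for cutting, was at 11.9 and 13.2 CPM with rapamycin and at 32.7 and 55.3 CPM in control. Its log2 fold change was −1.77 ± 0.32 (edgeR adjusted p = 0.00171), and the 2 rapamycin libraries were nearly equal. *RRP15* had −1.44 ± 0.35 (edgeR adjusted p = 0.0125) and *GRWD1*, a histone and ribosomal protein chaperone, −1.42 ± 0.27 (edgeR adjusted p = 0.0026). The 2 genes that rose were both large subunit factors. *NOP53* was at 213 and 301.5 CPM with rapamycin and at 147 and 86.4 CPM in control (log2 fold change 1.17 ± 0.30, edgeR adjusted p = 0.0222), and *RSL24D1* at 96.2 and 65.4 CPM against 37.5 and 42.4 CPM (0.99 ± 0.28, edgeR adjusted p = 0.0285). The log2 difference in numbers 1 and 2 was 0.54 and 1.80 for *NOP53* and 1.36 and 0.63 for *RSL24D1*. In DESeq2 *RSL24D1* was not called (DESeq2 adjusted p = 0.0515).

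By role, the other large subunit factors had 12 of 45 called lower, the other small subunit factors 8 of 38, the other polymerase I genes 2 of 11 and the exosome that trims ribosomal RNA 1 of 14. None of the 6 genes of snoRNP assembly was called. Of all genes tested, 3.5% were called lower, and the exosome share was 7.14%.

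The mRNAs of the finished ribosome's own proteins stood differently. None of the 79 cytosolic ribosomal protein genes was called in edgeR, beside 8.15% of all genes tested, and 4 had an unadjusted p under 0.05. Of the 79, 65 had a positive log2 fold change, beside 8391 of the 15826 genes tested, and the median over the 79 was 0.21. The median was 0.03 within number 1, close to the 0.02 of all genes, and 0.40 within number 2, against 0.10 for all genes. With rapamycin, 38 of the 79 genes were higher in both numbers, beside 5862 of the 15826 genes tested. In 35 of the 79 the numbers went opposite ways. *RPL3* was at 1601 and 2333 CPM with rapamycin and at 1052 and 1436 CPM in control, so that the rapamycin library was the higher in both numbers (log2 fold change 0.65 ± 0.26, edgeR adjusted p = 0.123; 0.0399 in DESeq2). *RPL13A* was at 1299 and 1423 CPM with rapamycin and at 1068 and 729 CPM in control (log2 fold change 0.62 ± 0.27, edgeR adjusted p = 0.157), with 0.28 in number 1 and 0.96 in number 2. Ribosomal protein genes have many processed pseudogenes, and counts could be split between copies. The difference between the ribosomal protein genes and the 45 genes was not tested.

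*MYC*, the transcription factor known to activate ribosome biogenesis genes, was itself higher with rapamycin. Its level was 608 and 249.5 CPM with rapamycin and 188 and 158 CPM in control, a log2 fold change of 1.18 ± 0.28 (edgeR adjusted p = 0.0119). The difference was 1.69 in number 1 and 0.66 in number 2 on the log2 scale. The median difference of the 45 genes was −0.45 in number 1 and −1.18 in number 2. With 1 library for each number and treatment, a link between *MYC* and the 45 genes was not tested. *MXI1*, a partner of MAX that opposes MYC, was at 56.0 and 51.3 CPM with rapamycin and at 22.8 and 11.8 CPM in control (log2 fold change 1.71 ± 0.31, edgeR adjusted p = 0.00176). *MYC* and *MXI1* were the 2 genes of 10 in the MYC network that passed, where 4.65% of all genes tested were called higher. With upper-quartile scaling, no count filter or at least 10 counts in every library, 3 of the 10 were called, all higher. The others ranged from *MXD4*, a further antagonist at 1.02 ± 0.32, to *MLX* at −0.58 ± 0.27. *MAX*, the shared partner, was at 0.05 ± 0.28.

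**Figure D4:**
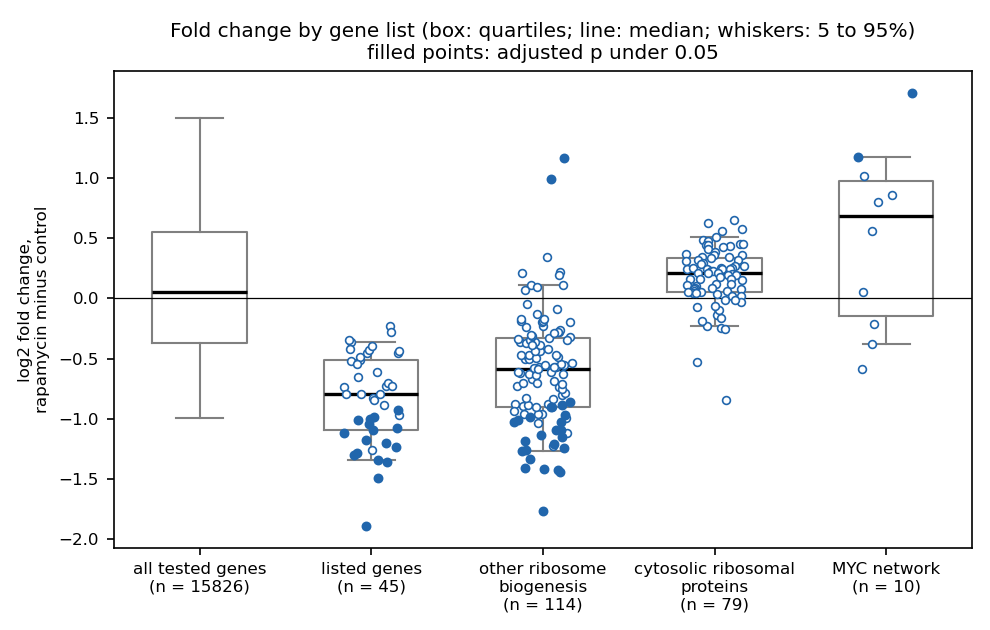
Fitted log2 fold changes, rapamycin minus control, for all tested genes (box only), the 45 listed genes, 114 other ribosome biogenesis genes, 79 cytosolic ribosomal protein genes and 10 genes of the MYC network. Boxes show quartiles with the median line and whiskers the 5th to 95th percentiles; points are genes, filled where the adjusted p was under 0.05, and the medians are 0.05, −0.80, −0.59, 0.21 and 0.68.

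The letters CACGTG, the core of the E-box that MYC with MAX is known to bind, were looked for in the 250 bases before the gene start. These letters read the same on both strands. RefSeq promoters (GRCh38.p14) were at hand for 38 of the 45 genes, and 3 of the 38 (7.89%) held the letters, *UTP20*, *UTP4* and *NOP10*, against 8.74% of the 11397 tested genes with a promoter and 6.34% of all 35116 promoters. Among the other ribosome biogenesis genes, 16 of 99 (16.2%) held them. The letters were in 2 of 14 promoters of genes called lower, *UTP20* and *UTP4*, and in 1 of 24 of genes not called. This difference was not tested. The windows of the 3 genes are shown. Each is 30 bases, written 5′ to 3′ on the strand of the gene with the CACGTG letters in capitals, and the first capital lies 10 bases before the start in *UTP20*, 16 in *UTP4*, and 11 and 170 in the near and far windows of *NOP10*.
UTP20, chr12:101280075-101280104, plus strand: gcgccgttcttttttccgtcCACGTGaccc
UTP4, chr16:69132619-69132648, plus strand: tgagagcgcgcgcgCACGTGgggccggggc
NOP10 near, chr15:34343137-34343166, minus strand: caggaaggaaattgacgaaCACGTGacgcg
NOP10 far, chr15:34343289-34343318, minus strand: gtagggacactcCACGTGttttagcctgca
A match of letters describes the sequence only. *NOP10*, with both matches, did not pass the test (log2 fold change −0.51 ± 0.28, edgeR adjusted p = 0.277).

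For m6A, the 4 peak lists held 34 peaks on 18 of the 45 genes, and 27 genes had no peak in any list. Of all genes tested in RNA-seq, 35.4% had a peak in at least 1 list. In HSC3, 9 genes (20%) had a peak in control and 4 (8.89%) with rapamycin, beside 17.6% and 17.5% of all genes tested in RNA-seq. In CAL33 the numbers were 13 (28.9%) in control and 5 (11.1%) with rapamycin, beside 16.1% and 14.2% of all genes. The 45 genes thus had peaks more often in control than with rapamycin in both cell lines. Each list came from 1 immunoprecipitate and 1 input, so these differences have no replicate and were not tested, and since their mRNAs were at lower levels with rapamycin, fewer peaks and less mRNA to detect them on cannot be told apart.

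By annotation, 15 of the 34 peaks were in coding sequence, 16 in 3′ untranslated regions, 1 in a 5′ untranslated region and 2 in exons of no stated part, and they spanned 121 to 481 exonic bases. Control lists held 24 of the 34. A peak only in control lists was seen for 10 of the 45 genes, beside 11% of all genes tested, and a peak only in rapamycin lists for 1, *HEATR1*, beside 9.59%. Of the 10 genes, 5 were among the 17 called lower in RNA-seq, beside 3.5% called lower among all genes tested. The genes with a peak had a median log2 fold change of −0.98 and 8 of 18 called lower, and the genes without one −0.73 and 9 of 27. The share called lower among all genes with and without a peak was not computed, so these counts show no link with m6A. Detection of a peak and mRNA level were not separated, and these medians and counts were not tested.

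*UTP15*, a processome component, was the only gene of the 45 with a peak in all 4 lists. The peak lay in its 3′ untranslated region on chromosome 5 (hg38) at chr5:73579932-73580262 in HSC3 control, and the other 3 overlapped it. Its fold enrichment of immunoprecipitate over input was 1430 in HSC3 control and 315 in HSC3 rapamycin, at the 99.7th and 97.1st percentiles of their lists. In CAL33 the enrichment was 12.4 in control and 10.7 with rapamycin, at the 18.7th and 19.5th percentiles. The site was therefore among the strongest in HSC3 and among the weaker ones in CAL33, in both treatments. *UTP15* mRNA was at 19.3 and 10.3 CPM with rapamycin and at 25.95 and 29.2 CPM in control (log2 fold change −0.96 ± 0.35, edgeR adjusted p = 0.0833).

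Peaks of control cells that no rapamycin peak of the same line overlapped were found in both lines for 3 of the 45 genes, beside 4.32% of all genes tested. Most control peaks had no such overlap, since 28.2% of all control peaks in HSC3 and 25.1% in CAL33 overlapped a rapamycin peak. *POLR1A*, the largest subunit of RNA polymerase I, had a 3′ untranslated region peak at chr2:86027020-86027230 with an enrichment of 196 in HSC3 control and an overlapping one at chr2:86027080-86027260 with 62.4 in CAL33 control, and none in either rapamycin list. *MYBBP1A* had coding sequence peaks at different places in the 2 control lists, with 8.67 in HSC3 and 4.43 in CAL33, and a peak in the 3′ untranslated region with 80.4 in CAL33 rapamycin. *MRTO4* had a weak peak (3.36) at its 5′ end in HSC3 control and a 3′ untranslated region peak in CAL33 control (43.4, chr1:19258821-19259029). A peak at chr1:19258851-19259059 with an enrichment of 35.5 in HSC3 rapamycin overlapped the latter, so the same 3′ site was listed in 1 control and 1 rapamycin list of different cell lines. *RRS1* had a 3′ untranslated region peak in HSC3 control (33.3), in HSC3 rapamycin (12.8) and in CAL33 control (32.4), the other two overlapping that of HSC3 control, and a coding sequence peak in HSC3 rapamycin (10) and in CAL33 control (47.7). None of the 45 genes gained a peak in both lines, beside 3.58% of all genes, and for 3 a peak was listed in opposite treatments in the 2 lines, beside 2.7%.

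Beside those of *UTP15*, the highest-ranking peak was on *POLR1B*, in coding sequence at chr2:112575590-112575830, with an enrichment of 664 (98.4th percentile) in CAL33 control and no counterpart in the other lists. Most listed peaks of the series as a whole did not overlap a peak of the other treatment. Without replicates, the overlap between 2 lists of the same treatment is unknown, so sites that differ cannot be told from sites not detected. Of all rapamycin peaks, 28.4% in HSC3 and 29.9% in CAL33 overlapped a control peak of the same line by at least 1 base, and of the peaks on the 45 genes, 2 of 5 in HSC3 and 1 of 5 in CAL33 did. The 17 genes called lower in RNA-seq included *UTP20*, *PNO1*, *NCL*, *NOLC1*, *NOP14*, *NOP16*, *UTP4*, *LTV1* and *BRIX1* without a peak in any list.

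**Figure D5:**
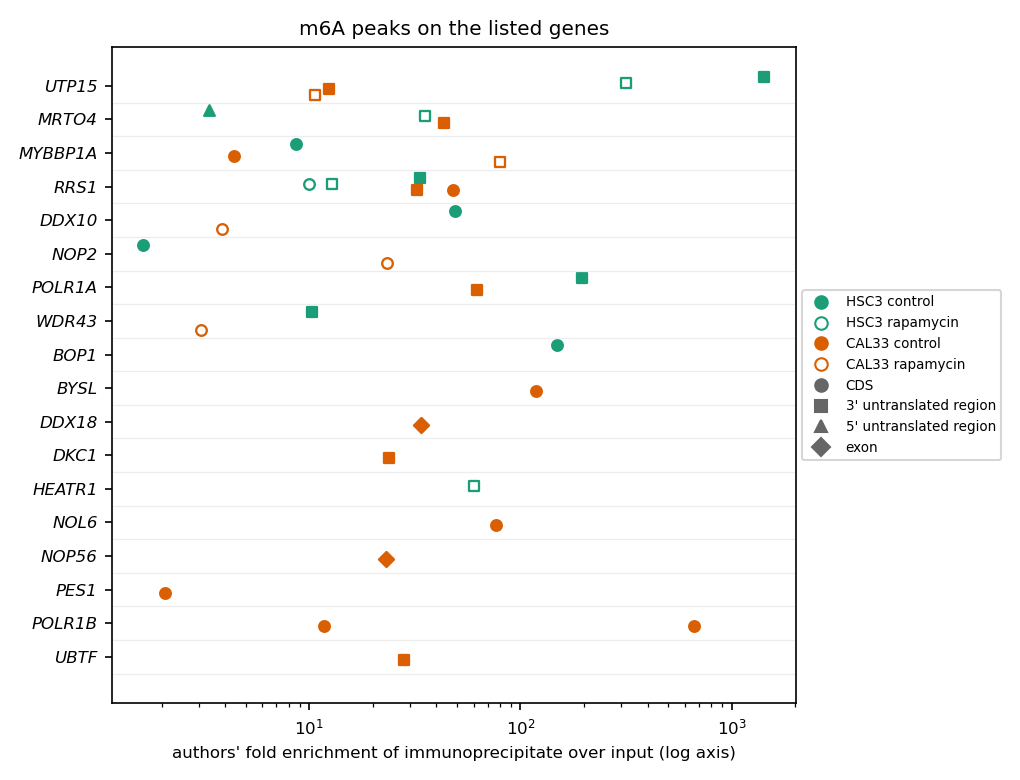
m6A peaks on the 18 genes that had any, by the authors' fold enrichment of immunoprecipitate over input (log axis). Colour marks the cell line, filled symbols control and open symbols rapamycin, and shape the annotated part of the transcript; 24 of the 34 symbols are filled, and *UTP15* has all 4 kinds, from 10.7 to 1430.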

How the data were processed

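The RNA-seq table that the authors deposited holds raw counts of reads by Ensembl gene. For MeRIP-seq, they deposited 1 peak list for each immunoprecipitate and its input, with a fold enrichment (a ratio), a log10 p-value, a log10 false discovery rate and a score for each peak in hg38; the peak caller and the depth of these libraries are not given in the sources used here. The submitters' processing notes name cutadapt 2.5, HISAT2 2.1.0, featureCounts 1.6.3 and HOMER 4.10.4 without their roles. The library kit was stranded and the use of strand in counting is not stated, so reads of overlapping genes, which 18 of the 45 genes have in RefSeq, may be shared. Of 58302 identifiers, 57532 had a symbol.

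edgeR 4.0.16 (R 4.3.3) was run on the counts. filterByExpr kept 15826 genes, scaling was by TMM, and the effect of rapamycin was tested by the robust quasi-likelihood test with the library number as a block and Benjamini-Hochberg adjustment at 0.05. That fit leaves 1 residual degree of freedom per gene, so the spread is largely shared across genes. CPM are TMM-scaled, and differences within a number are on the log2 scale after adding 0.5 to each count and scaling by the TMM library size. With the block, the p-values rest on how far the difference between rapamycin and control varied between number 1 and number 2. Each number had 1 library per treatment, and the numbers differed widely from each other, as in *KRT17* and *TP63*. Nothing states that the libraries came from separate cultures, so the p-values do not measure a spread between repeated cultures of the same cells. The numbers were taken as pairs because the rule of the gene list pairs the libraries by number. As a check, the number 2 minus number 1 difference in rapamycin correlated with that in control (r = 0.907 across 15826 genes, which are not independent), and the common dispersion was 0.061 with the block and 0.636 without.

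The 45 genes and the other lists were chosen with earlier results of these data known. Genes named were, in each role, those that passed (up to 5 with the smallest p, and the 2 of highest mean CPM where fewer than 2 passed), the 3 largest rises and falls of the other biogenesis genes, the 2 ribosomal protein genes of smallest p, *MYC* and each network gene that passed, and the peaks in all 4 lists, lost in both lines or among the 3 of highest percentile. The remaining genes were chosen after their values were seen. Alternatives were no block, RLE, upper-quartile and total-count scaling, no filter or at least 10 counts in every library, no robust estimation, DESeq2 1.42.0, each library left out, a fold enrichment of at least 4 and other overlap rules. Methods were tested on simulated data. The peaks were read by Ensembl identifier and positions are counted from 1.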

Additional observations from a re-analysis of the deposited data

Results flagged for a closer look

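For 3 of the 45 genes the libraries numbered 1 and 2 moved in opposite directions with rapamycin, as they did for 31.2% of all genes tested. *NOP58*, a core protein of the box C/D snoRNP, differed by 0.45 on the log2 scale in number 1 and by −1.38 in number 2. *RRN3* differed by 0.0912 in number 1 and by −0.92 in number 2, and *WDR12* by 0.0401 and −1.497. With 1 library for each number and treatment, none of these differences was tested.

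For 3 of the 45 genes m6A peaks were listed in opposite treatments in the 2 cell lines, as for 2.7% of all genes tested, which could not be tested without replicates. In these 3 the peaks were in HSC3 only in control and in CAL33 only with rapamycin. *DDX10*, an RNA helicase, had a coding sequence peak with a fold enrichment of 48.8 in HSC3 control and of 3.88 in CAL33 rapamycin. *NOP2* had one of 1.64 in HSC3 control (chr12:6557161-6557281) and one of 23.4 in CAL33 rapamycin (chr12:6557042-6557251). For *DDX10* (chr11:108723035-108723244 and chr11:108723065-108723244) and for *NOP2* the peaks of the 2 lines overlapped, so the same site was listed in each line. *WDR43* had a 3′ untranslated region peak of 10.3 in HSC3 control and, at a different place, a coding sequence peak of 3.06 in CAL33 rapamycin. Each of the 3 genes had 1 peak under a fold enrichment of 4, and with that minimum the pattern was gone for all 3. *MRTO4* then had peaks in opposite treatments in the reverse direction, with 35.5 in HSC3 rapamycin and 43.4 in CAL33 control.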

How the results depend on the processing

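Without the replicate block no gene was called, with 0 of 15826 genes, 0 of the 45, 0 of 114 other biogenesis genes and 0 of 10 MYC network genes, while none of the 45 changed sign. In the other settings, all with the block, the 17 called genes kept their sign and the call was kept by 16 with RLE scaling, 14 with upper-quartile or total-count scaling, 17 without a count filter (6 more were called), 16 with at least 10 counts in every library, 17 without robust estimation (*NOP56* was added) and 14 with DESeq2 (*NOC2L*, *NOP56* and *NPM1* were added). Those lost were *NOL6*, *LTV1* and *BOP1*. DESeq2 called 818 of all genes (402 lower and 416 higher) against 1290 in edgeR, 1 ribosomal protein gene (*RPL3*), and not *RSL24D1* (adjusted p = 0.0515). Upper-quartile scaling moved the median of all genes from 0.05 to 0.13. Leaving out a library leaves 1 numbered pair, with no test, and the median of the 45 genes was then −1.18 or −0.45, against 0.10 or 0.02 for all genes. With a fold enrichment of at least 4, the genes with a peak went from 9 to 7 in HSC3 control, from 13 to 12 in CAL33 control and from 5 to 3 in CAL33 rapamycin and stayed at 4 in HSC3 rapamycin, and coding sequence peaks in CAL33 rapamycin went from 3 to 1. By the same minimum, chosen after seeing the data, 2 of the 3 genes with control peaks lost in both lines were left (without *MRTO4*). The number of libraries, 2 per RNA-seq group and 1 immunoprecipitate per peak list, limits all of these results, and the depth of the m6A libraries is unknown.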
